A study of Mus musculus with 16 samples.

Results

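Luminal mammary epithelium is marked by simple keratins, by claudins of the tight junction and by the adhesion protein EpCAM, and 9 genes of these kinds are described here across normal mammary glands and STAT5-driven mammary tumours of mice. They are the keratins Krt7, Krt8, Krt18 and Krt19, the claudins Cldn1, Cldn3, Cldn4 and Cldn7, and Epcam. They were chosen by name, as the genes to which the array's probe table gives at least 1 probe set of their own, and 17 of the array's 22690 probe sets belong to one of them alone. Of those 17 probe sets, 15 passed the filter on dim signals, and all 9 genes are among the 9261 genes tested. The glands alone carried the 9 probe sets used past the filter, since the lowest of their gland signals was 49.8, for Cldn4, against a filter of 35.4.

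Keratins form intermediate filaments from an acidic and a basic partner: Krt8 pairs with Krt18 in all simple epithelia, while Krt7 (basic) and Krt19 (acidic) are added in ducts and glands. Claudins span the membrane at tight junctions, where Cldn3, Cldn4 and Cldn7 seal the luminal face of glandular epithelium, Cldn1 is widespread in barrier epithelia, and Cldn7 and EpCAM also bind each other along the lateral membrane. In the mammary gland these proteins mark the luminal cells, and STAT5 is the transcription factor that carries the prolactin signal into those cells.

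RNA from 16 samples of mice on the FVB/N background was measured, 1 Mouse Genome 430A 2.0 array each. The glands (3 arrays, numbered 1, 4 and 6) were labelled normal. STAT5ca tumours (7 arrays) came from mice with a transgene for constitutively active STAT5, and STAT5Δ750 tumours (6 arrays) from mice with a transgene for STAT5 truncated at the C-terminus. Tumours were snap-frozen whole, and the labels do not give the promoter of either transgene, the age of the mice, the stage of the glands or the histology of the tumours. They do not say that each array is a separate mouse, so p-values measure only the spread between these samples. In whole tissue, fewer cells of a type and less RNA per cell cannot be told apart.

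All signals below are MAS5 intensities after scaling of each array to a common median of 75.9, with factors from 0.837 to 1.33. Signals of different genes are not compared, because probes differ in brightness. A log2 difference is a difference of mean log2(signal + 7.9), given with the standard error (SE) of the fit, and it understates the change of dim genes. A gene passed at an adjusted p under 0.05, from limma with Benjamini-Hochberg adjustment over all 9261 genes.

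The array of tumour STAT5ca_177 stood apart from the 12 other tumours, and its label, mammary tumour, goes with few signs of epithelium. Over 10 genes of epithelial identity outside the 9 (Cdh1, Esrp1, Esrp2, Grhl2, Spint1, Spint2, Rab25, Ehf, Elf3 and St14), its mean log2 level was 5.40, against 9.33 to 10.44 on the other tumours and 7.28 to 8.24 on the glands. Its 7 macrophage markers averaged 11.50 on the log2 scale, against 8.05 to 9.44 on the other tumours, and its 13 mesenchymal markers 8.64, against 6.16 to 8.0. Cdh1, which encodes E-cadherin, was at 747 on this array, beside 485 to 742 on the glands and at least 1280 on the other tumours. The tests of the 9 genes are therefore given with and without STAT5ca_177. Because that choice rests on genes akin to the 9, p-values without this array are conditional on it.

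Krt8 and Krt18, the obligate pair of simple epithelia, were high on 12 of 13 tumours. Krt8 had signals of 1480, 696 and 1570 on glands 1, 4 and 6. On the STAT5ca tumours Krt8 ran from 33.5 on STAT5ca_177 through a median of 5190 to 6180, with 4020 as the lowest of the other 6. On the STAT5Δ750 tumours Krt8 ran from 3720 through a median of 4600 to 5550. Every tumour other than STAT5ca_177 was thus above every gland, and STAT5ca_177 was below all of them. The 2 further Krt8 probe sets gave the same order of groups, with medians of 1120 and 1060 on glands, 4320 and 4240 on STAT5ca tumours and 4060 and 3720 on STAT5Δ750 tumours.

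Krt18 followed the same course. Its signals were 1410, 814 and 1550 on the glands. The STAT5ca tumours ran from 66.5 on STAT5ca_177, then 5010 as the lowest of the other 6, through a median of 5850 to 7150. The STAT5Δ750 tumours ran from 3940 through a median of 5150 to 6390, so that again 12 of 13 tumours lay above the 3 glands. Krt8 and Krt18 lie beside each other on chromosome 15, with 0 protein-coding genes between them in the RefSeq annotation of build GRCm38.p6. The 250 bases before their RefSeq starts are shown, 5′ to 3′ on the strand of the gene, because the genes are neighbours. Every member but Krt19 was above the glands on the same 12 tumours, so that pattern is no trait of these neighbours. They are chr15:102004343-102004592 (minus strand) for Krt8 and chr15:102027966-102028215 (plus strand) for Krt18. Capitals mark CACCTG, an E-box that repressors of the Snail and Zeb families are known to bind.
Krt8: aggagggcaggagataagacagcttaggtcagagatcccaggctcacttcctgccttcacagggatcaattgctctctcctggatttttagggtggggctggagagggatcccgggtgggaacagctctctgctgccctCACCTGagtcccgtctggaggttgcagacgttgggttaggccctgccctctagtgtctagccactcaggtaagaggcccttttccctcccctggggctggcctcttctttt
Krt18: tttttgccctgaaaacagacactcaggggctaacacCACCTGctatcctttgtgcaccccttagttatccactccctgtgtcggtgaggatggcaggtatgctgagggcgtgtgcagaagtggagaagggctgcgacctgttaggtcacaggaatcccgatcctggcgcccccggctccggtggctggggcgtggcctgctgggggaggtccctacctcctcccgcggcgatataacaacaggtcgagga
Each window held 1 copy. A match is a description of the sequence and not a binding site.

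**Figure D1:**
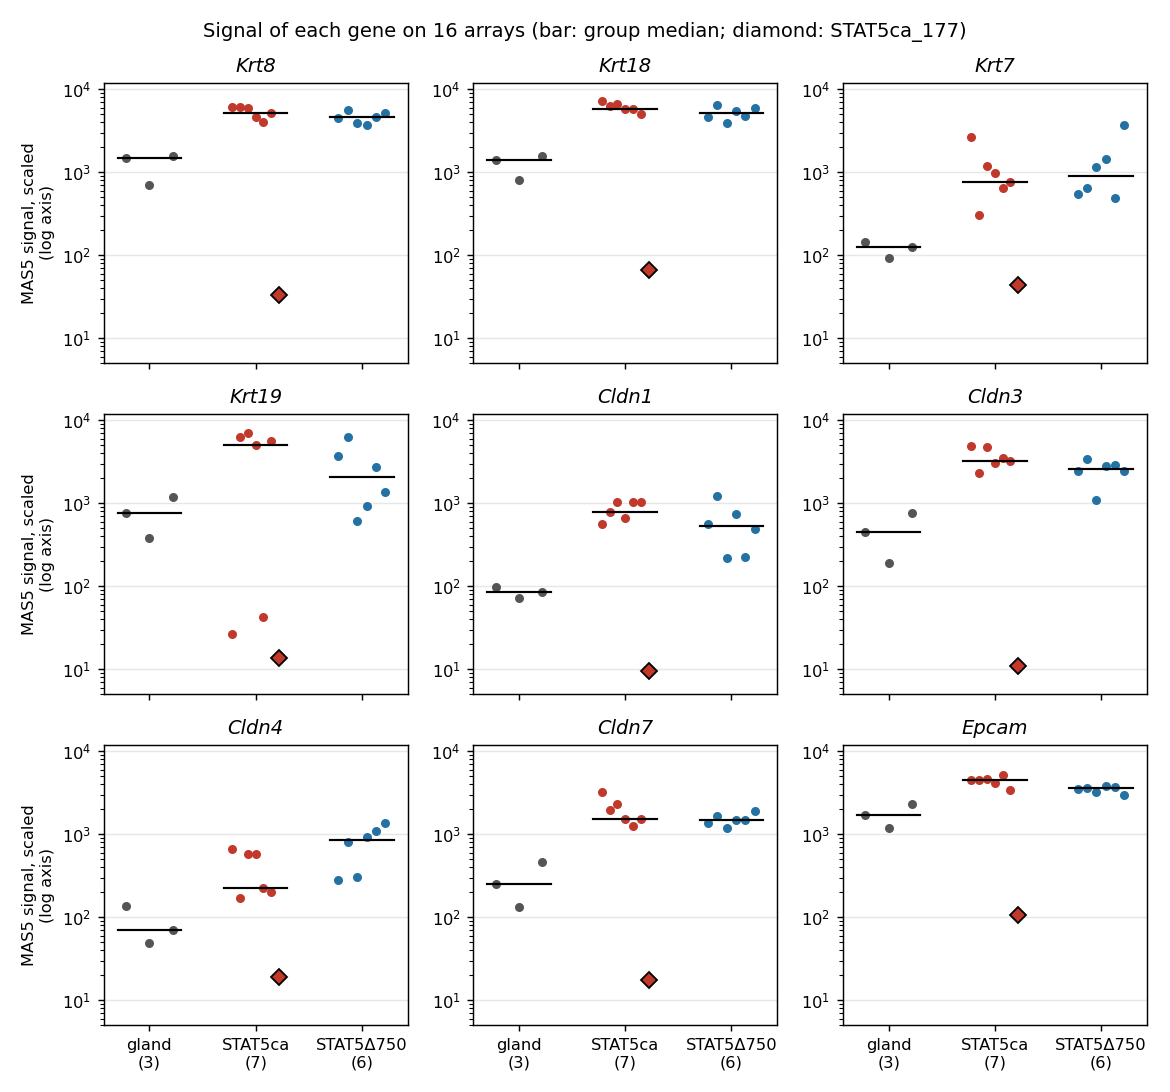
Scaled MAS5 signal (log axis) of the 9 genes, 1 point per array, for 3 glands, 7 STAT5ca tumours and 6 STAT5Δ750 tumours; bars are group medians and the diamond is STAT5ca_177. Krt8 on the other 12 tumours sits between 3720 and 6180, above the glands at 696 to 1570, while the diamond is the lowest point in all 9 panels.

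Krt7, the basic keratin of ducts, was low on the glands and spread widely over the tumours. The glands had 144, 93.3 and 127. The STAT5ca tumours ran from 43.5 on STAT5ca_177 through a median of 765 to 2680 on STAT5ca_123, with 304 on STAT5ca_124 as the lowest of the other 6. The STAT5Δ750 tumours ran from 485 on STAT5Δ750_178 through a median of 905 to 3650 on STAT5Δ750_160. The 12 tumours other than STAT5ca_177 were all above the glands, but the highest of them had 12 times the signal of the lowest.

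Krt19, the smallest keratin and one without a fixed basic partner, split the STAT5ca tumours. The glands had 764, 381 and 1190. Of the 7 STAT5ca tumours, 4 had 5100 to 7020 (STAT5ca_159, STAT5ca_171, STAT5ca_124 and STAT5ca_213), while STAT5ca_123 had 26.9, STAT5ca_169 had 43.3 and STAT5ca_177 had 13.8. No STAT5ca tumour lay within the range of the glands. Of these 3 tumours, only STAT5ca_177 was also low for the other 8 genes: STAT5ca_123 had the highest Krt8, Krt18, Cldn3 and Cldn7 of all 16 arrays (6180, 7150, 4870 and 3260), and STAT5ca_169 had the highest Epcam (5200). The STAT5Δ750 tumours were graded, from 606 on STAT5Δ750_165 and 936 on STAT5Δ750_174 through 1360, 2750 and 3660 to 6340 on STAT5Δ750_92, and 4 of the 6 were above all glands. Krt19 has 1 probe set on the array, so that no second probe set bears on these values.

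**Figure D2:**
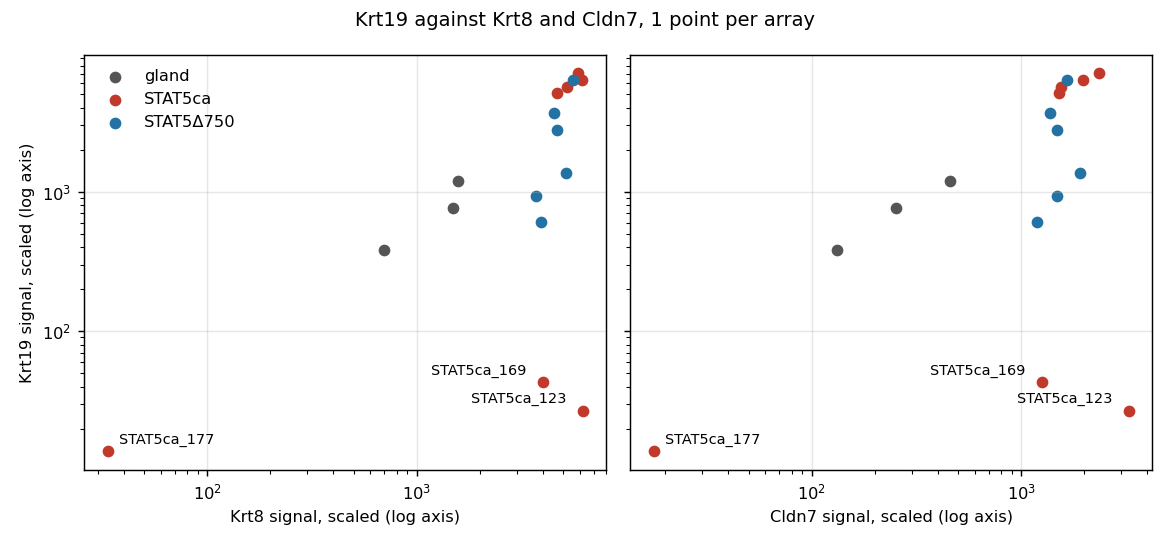
Krt19 signal against Krt8 (left) and Cldn7 (right), both axes scaled MAS5 signal on a log scale, 1 point per array and 1 colour per group. STAT5ca_123 and STAT5ca_169 sit at 26.9 and 43.3 of Krt19 with Krt8 at 6180 and 4020, whereas STAT5ca_177 is low for all 3 genes.

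The claudins of the luminal seal, Cldn3, Cldn4 and Cldn7, were higher on 12 of 13 tumours than on any gland. Cldn3 had 453, 191 and 771 on the glands, 11.1 on STAT5ca_177 and 2330 to 4870 on the other STAT5ca tumours (median of all 7, 3220). STAT5Δ750 tumours had 1080 to 3440 of Cldn3 with a median of 2610, and STAT5Δ750_165 had the lowest. All 4 Cldn3 probe sets placed both tumour medians above the gland median, with gland medians of 132 to 453 and tumour medians of 1540 to 3220. Cldn7 had 252, 132 and 458 on the glands, 17.6 on STAT5ca_177, 1250 to 3260 on the other STAT5ca tumours (median of all 7, 1550) and 1190 to 1920 on STAT5Δ750 tumours (median 1480). The tumour classes overlapped for both genes, with the highest values in STAT5ca.

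Cldn4 differed from Cldn3 and Cldn7 in that its highest tumours were STAT5Δ750. Its signals were 136, 49.8 and 70.4 on the glands. The STAT5ca tumours ran from 19.2 on STAT5ca_177 through a median of 228 to 657, with 170 as the lowest of the other 6. The STAT5Δ750 tumours ran from 283 through a median of 859 to 1350, and 4 of them (STAT5Δ750_92, STAT5Δ750_174, STAT5Δ750_178 and STAT5Δ750_160) were above every STAT5ca tumour. In the same annotation Cldn3 and Cldn4 are neighbours on chromosome 5 with 0 genes between them, and the Cldn4 signal varied 7.92-fold over the 12 tumours and that of Cldn3 4.51-fold. The window before the Cldn4 start, chr5:134946935-134947184 (minus strand), is shown for its E-box, in capitals, which the Cldn3 window lacks.
Cldn4: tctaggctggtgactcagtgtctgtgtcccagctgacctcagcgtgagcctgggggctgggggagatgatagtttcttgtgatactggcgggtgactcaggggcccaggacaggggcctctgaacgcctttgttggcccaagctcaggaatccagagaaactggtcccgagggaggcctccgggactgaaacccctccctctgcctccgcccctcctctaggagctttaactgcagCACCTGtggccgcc

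Cldn1, the claudin most widely expressed in epithelial barriers, had 98.0, 71.8 and 85.8 on the glands with its brightest probe set. STAT5ca_177 had 9.67, and the other STAT5ca tumours 567 to 1050 (median of all 7, 790). The STAT5Δ750 tumours ran from 217 and 226 on STAT5Δ750_165 and STAT5Δ750_178 through a median of 530 to 1220 on STAT5Δ750_92. All tumours but STAT5ca_177 were above all glands. A second Cldn1 probe set was dimmer, with medians of 19.3 on glands, 144 on STAT5ca and 144 on STAT5Δ750 tumours, and passed the filter through its tumour values. The other 2 Cldn1 probe sets did not reach the filter, with no signal above 17.8.

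Epcam, whose product is a homophilic adhesion protein of epithelial cells, was also higher on 12 of 13 tumours than on any gland. The glands had 1720, 1190 and 2290. STAT5ca tumours ran from 106 on STAT5ca_177 through a median of 4530 to 5200, with 3400 as the lowest of the other 6. STAT5Δ750 tumours ran from 3010 through a median of 3560 to 3810, and 5 of the 7 STAT5ca tumours were above all of them. The Epcam window, chr17:87635729-87635978 (plus strand), is shown because it was the only one of the members' windows to hold ACCGGT, the core of the motif bound by grainyhead-like factors such as Grhl2. Capitals mark 2 copies of ACCGGT, 1 of CACCTG and 1 of its reverse complement CAGGTG.
Epcam: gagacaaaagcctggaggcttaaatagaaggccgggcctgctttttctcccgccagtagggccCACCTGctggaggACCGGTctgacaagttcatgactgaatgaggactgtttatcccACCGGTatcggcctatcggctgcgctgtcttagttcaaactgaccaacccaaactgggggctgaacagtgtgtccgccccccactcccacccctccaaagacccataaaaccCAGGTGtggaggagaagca

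Of the 9 genes, 8 had at least 1 promoter window in the RefSeq table (9 windows, Krt19 not among them), each the 250 bases before a start. On either strand, CACCTG was found in the windows of 6 genes (Krt7, Krt8, Krt18, Cldn4, Cldn7 and Epcam) and in 17.2% of all 32851 windows of this length. ACCGGT was found for Epcam alone and in 1.86% of all windows. TTCNNNGAA, the letters of the STAT recognition element, was found in 1 of the 2 Cldn7 windows and in 7.02% of all windows. The motifs were chosen after the promoter sequences were seen, no test was made, and no match says only that these letters are not in the window.

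**Figure D3:**
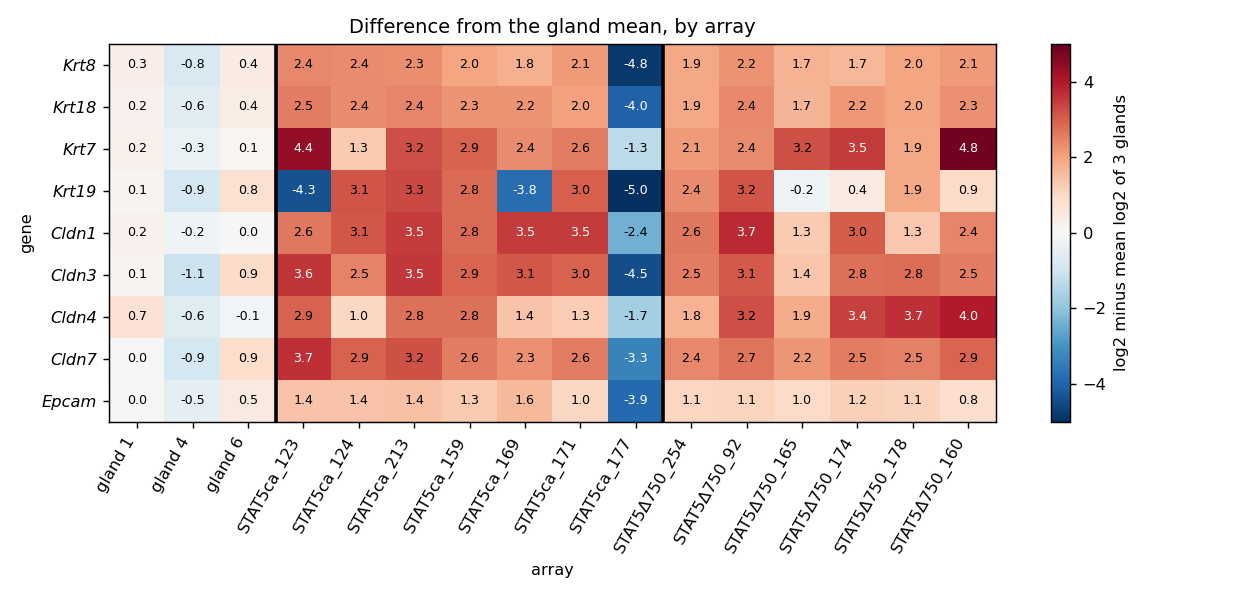
Difference of each array from the mean of the 3 glands (log2), for the 9 genes (rows) and 16 arrays (columns), with the value written in each cell. Every cell of STAT5ca_177 is negative, from -5.04 to -1.31, and the other negative tumour cells are Krt19 on STAT5ca_123, STAT5ca_169 and STAT5Δ750_165.

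Against the glands, with all 16 arrays, none of the 9 genes passed in STAT5ca tumours, where 23.3% of all genes tested passed (13.9% higher and 9.39% lower). The differences of 8 of the 9 were positive, from 0.63 ± 0.86 for Epcam to 2.39 ± 0.99 for Cldn1 (log2 ± SE), with adjusted p from 0.084 for Krt7 to 0.628 for Epcam. For Krt19 the difference was -0.13 ± 1.78 (adjusted p = 0.964). The median over the 9 was 1.5, beside 0.25 over all genes. For 8 genes, 6 of the 7 tumours were above every gland, and for Krt19 4 of 7. The groups overlapped for all 9, since STAT5ca_177 was below the glands, whereas 14.5% of all genes were higher without overlap.

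Without STAT5ca_177, 8 of the 9 genes passed as higher in STAT5ca tumours, where 19.7% of all genes passed as higher and 32.8% passed in either direction. That array was set apart by low epithelial genes such as Grhl2 and Ehf, which followed the mean of the 9 closely (r = 0.970 and 0.963). The p-values of this fit depend on that choice and are not independent of it. The largest differences were those of Cldn1 at 3.18 ± 0.44 (9.08-fold), Cldn3 at 3.09 ± 0.41 (8.50-fold) and Cldn7 at 2.88 ± 0.35 (7.35-fold). Their adjusted p were 9.27e-05, 6.23e-05 and 2.88e-05. The other claudin, Cldn4, differed less than Krt7, Krt8 and Krt18. The keratin pair also passed, with Krt8 at 2.16 ± 0.26 (adjusted p = 2.83e-05) and Krt18 at 2.31 ± 0.23 (adjusted p = 7.55e-06). Krt7 rose by 2.80 ± 0.63 (adjusted p = 0.00325), Cldn4 by 2.03 ± 0.56 (adjusted p = 0.0119) and Epcam by 1.38 ± 0.21 (adjusted p = 0.000219) in the same fit of 15 arrays. Krt19 did not pass, at 0.69 ± 1.60 with an adjusted p of 0.768 and an interval from -2.71 to 4.08. The median over the 9 was 2.31, beside 0.25 over all genes.

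In STAT5Δ750 tumours against glands, Krt7 and Cldn4 rose, and these 2 of 9 compare with 9.29% of all genes that passed as higher, 10.4% as lower and 19.7% in either direction. Krt7 rose by 3.0 ± 0.91 (7.98-fold, adjusted p = 0.0299) and Cldn4 by 2.98 ± 0.82 (7.91-fold, adjusted p = 0.0182), each on 6 of 6 tumours. The other 7 differences were also positive and ran from 1.05 ± 0.89 for Epcam to 2.55 ± 1.07 for Cldn7, with adjusted p from 0.106 to 0.619. The median over the 9 was 2.41, beside 0.08 over all genes. For 8 of the 9 genes, all but Krt19, every STAT5Δ750 tumour was above every gland, which held for 18.5% of all genes.

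The standard errors of this comparison come from a spread shared by the 3 groups, to which STAT5ca_177 contributes although it is in neither group compared. Without it the differences were the same to 2 decimals and the standard errors were smaller, for Krt8 0.26 in place of 1.17 and for Cldn7 0.35 in place of 1.07. Then 8 of the 9 genes passed as higher (13.0% of all genes did, and 26.3% passed in either direction), with adjusted p from 2.52e-05 for Krt18 to 0.00254 for Krt7, and Krt19 did not (1.44 ± 1.60, adjusted p = 0.538). A fit of the STAT5Δ750 and gland arrays alone also called these 8, with adjusted p from 0.000682 to 0.00643. With all groups in the fit, Krt7 was no longer called without gland 1, 4 or 6 or without STAT5Δ750_165, STAT5Δ750_174 or STAT5Δ750_160 (adjusted p from 0.0513 to 0.119). Cldn4 was no longer called without gland 4 (adjusted p = 0.0984) or gland 6 (0.0639).

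**Figure D4:**
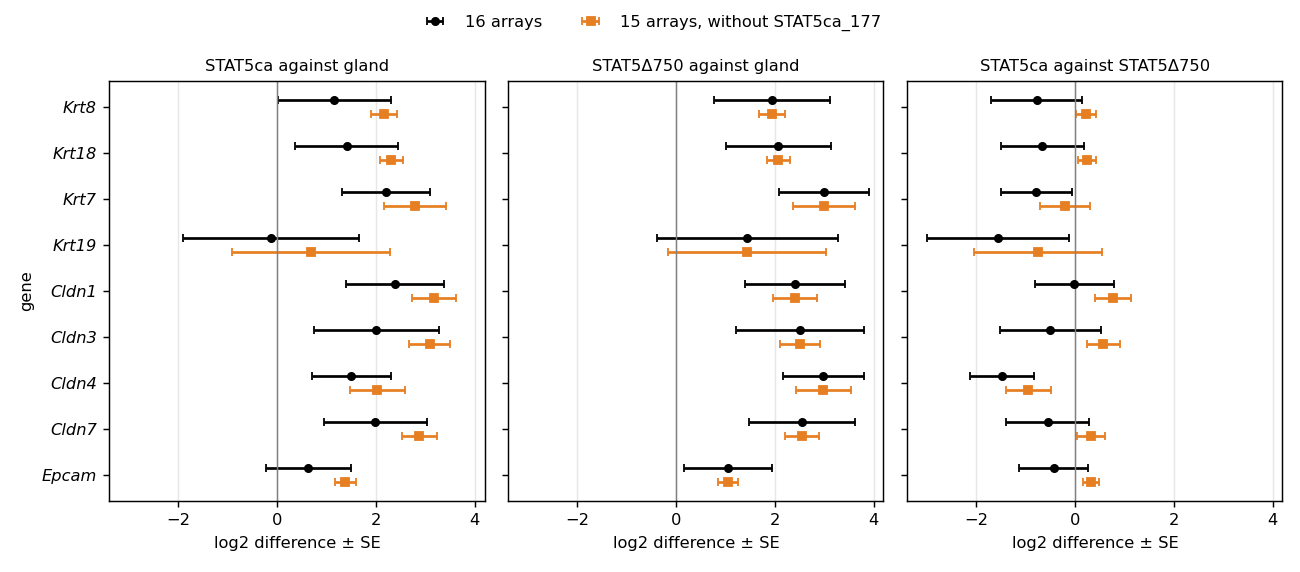
Log2 difference ± SE of the 9 genes in the 3 comparisons, from the fit of all 16 arrays (black circles) and of 15 arrays without STAT5ca_177 (orange squares). Without that array the STAT5Δ750 differences keep their place and their error bars shorten, for Krt8 from 1.17 to 0.26, and the STAT5ca differences move up, for Krt8 from 1.16 to 2.16.

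Between the tumour classes, none of the 9 genes passed, and neither did any of the 9261 genes (0%), with or without STAT5ca_177. At an unadjusted p under 0.05 there were 764 genes (8.25%), and of the members Cldn4 was among them. Its signal was lower in STAT5ca tumours, by -1.48 ± 0.65 (unadjusted p = 0.0359, adjusted p = 0.598, limma), and by -0.95 ± 0.46 without STAT5ca_177, with an interval from -1.93 to 0.03. With all arrays the 9 differences were all negative, with a median of -0.67. Without STAT5ca_177, 6 of the 9 were positive (Krt8, Krt18, Cldn1, Cldn3, Cldn7 and Epcam), with a median of 0.24 beside 0.14 over all genes. For the keratin pair and Epcam the intervals were then narrow, from -0.23 to 0.67 for Krt8, from -0.16 to 0.64 for Krt18 and from -0.04 to 0.69 for Epcam. For Cldn1 the interval was 0.01 to 1.54 (adjusted p = 0.471), and for Krt19 it was -3.52 to 2.02. The tumour classes share the glands as controls, and their differences from gland are given side by side and not as independent evidence of each other.

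The spread among tumours differed by gene. Over the 12 tumours other than STAT5ca_177, the SD of the log2 level was 0.24 for Epcam, 0.24 for Krt18 and 0.25 for Krt8, where the median gene had 0.49 and 2.8%, 3.5% and 4.1% of genes had a smaller SD. These 3 probe sets were near the top of their arrays, at percentiles of 98.3 to 99.3 for Epcam, 98.9 to 100 for Krt18 and 98.8 to 99.9 for Krt8, and the part of compression of bright signals in their small SD was not tested. Cldn7 (0.41) and Cldn3 (0.56) lay near the median gene. Cldn1 had an SD of 0.80, Cldn4 of 0.99 and Krt7 of 1.02, at the percentiles 81.3, 88.9 and 89.5 of all genes. Krt19 had 2.66, at the percentile 99.7, with signals on STAT5ca_123 and STAT5ca_169 near the filter on dim signals. Among the glands, gland 4 had the lowest value for 9 of the 9 genes.

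Whether the genes rose more or less than the rest of the epithelium was described by subtracting, on each array, the mean log2 level of the 10 epithelial reference genes. Krt8 and Krt18 then differed little from the glands, by 0.12 and 0.25 in STAT5Δ750 tumours and by -0.03 and 0.12 in STAT5ca tumours without STAT5ca_177. Epcam was lower relative to the reference, by -0.78 in STAT5Δ750 and -0.82 in STAT5ca tumours without STAT5ca_177, and 13 of 13 tumours were below all 3 glands. Krt7, Cldn1, Cldn3 and Cldn7 were higher relative to the reference, with 10, 9, 10 and 11 of 13 tumours above all glands. For Cldn4 the difference from the glands was 1.16 in STAT5Δ750 tumours and -0.16 in STAT5ca tumours without STAT5ca_177, and for Krt19 it was -0.39 and -1.51. The Krt19 means hide a split: relative to the reference, 6 of 13 tumours were below all glands and 6 were above. In STAT5ca tumours without STAT5ca_177, Krt19 minus the reference ran from -5.32 to 2.74 (SD 3.87). Such a difference within an array shows unequal change of signal and not which of the genes changed, and it was not tested. The part of compression of bright signals in it, as for Epcam, Krt8 and Krt18, was not tested either.

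Markers of other cells moved with these comparisons. The 10 skeletal muscle genes summed to signals of 53300 to 67300 on the glands, 106 to 9840 on STAT5ca and 272 to 19000 on STAT5Δ750 tumours, and 10 and 9 of the 10 passed as lower. Of 9 adipocyte genes 7 passed as lower in each tumour class, with sums of 21600 to 23100 on glands, 1320 to 11100 on STAT5ca and 1330 to 13000 on STAT5Δ750 tumours. All 8 lymphocyte genes passed as lower in both classes, and their sums were 4810 to 9400 on glands, 266 to 7670 on STAT5ca and 340 to 2520 on STAT5Δ750 tumours. Of 6 endothelial genes 5 passed as lower in both classes, and of 8 basal and myoepithelial genes 4 and 2. Without STAT5ca_177 these counts were the same except for muscle in STAT5Δ750 tumours, with 10. Of 8 fibroblast genes 2 passed as higher and 2 as lower in STAT5ca tumours, and 1 and 1 in STAT5Δ750 tumours. Without STAT5ca_177 these were 1 and 2 in STAT5ca, and 2 and 1 in STAT5Δ750 tumours. Of 7 macrophage genes 1 passed as higher in STAT5ca tumours (Cd14) and 0 in STAT5Δ750 tumours. Without STAT5ca_177, 1 was higher and 2 were lower in each class. Cd14 rose by 1.53 ± 0.49 and 1.41 ± 0.49, Csf1r fell by 1.42 ± 0.39 and 1.57 ± 0.39, and Mrc1 fell by 2.70 ± 0.54 and 1.75 ± 0.54. The high level of these markers also set that array apart, so the calls without it are conditional on that choice. The beta-actin 3'/5' ratio, a sign of RNA quality, was 1.07 to 1.25 on glands, 1.76 to 5.38 on STAT5ca and 1.27 to 3.52 on STAT5Δ750 tumours. With log2 of this ratio as a covariate, 0 of the 9 genes passed against glands in either class, and 7 and 8 passed when STAT5ca_177 was also left out. Every tumour ratio was above every gland ratio, so RNA quality and the difference of tumour from gland cannot be told apart by this fit. The part of the other cells in the members' differences was not tested.

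**Figure D5:**
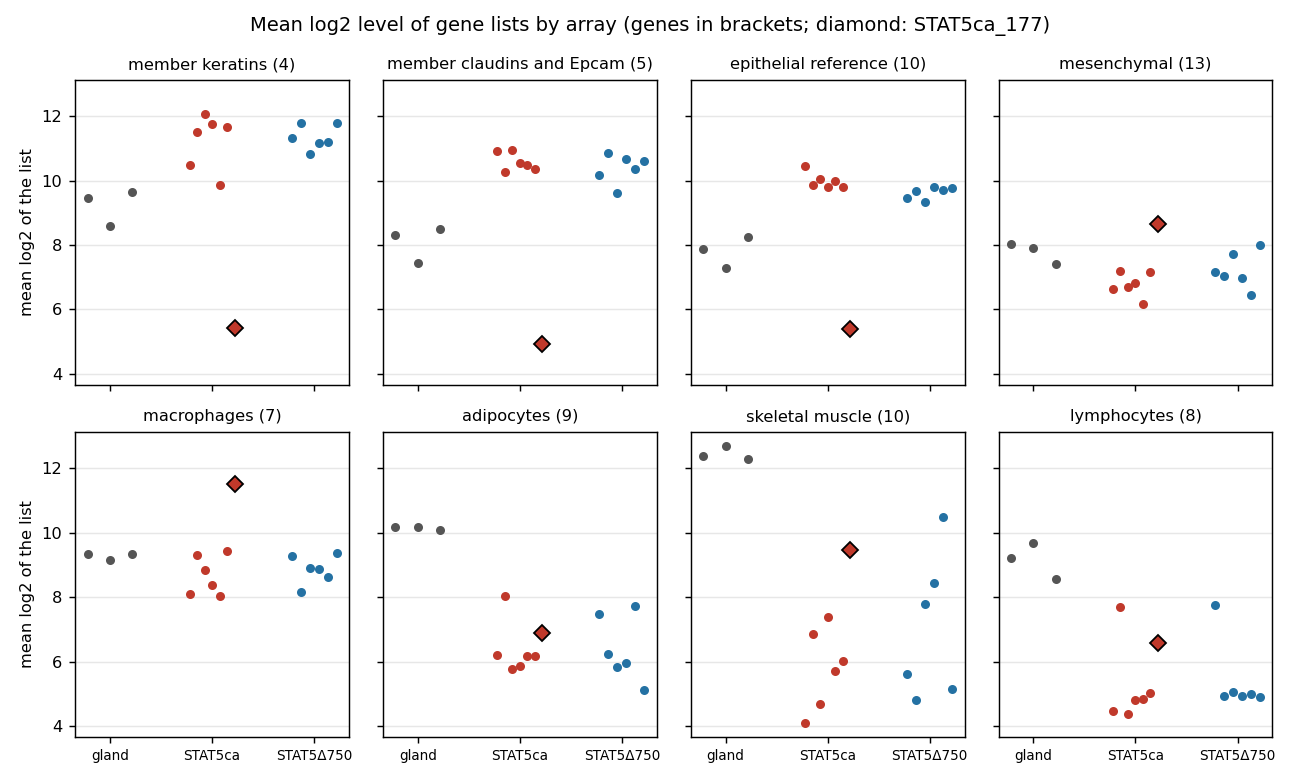
Mean log2 level of 8 gene lists on each array (1 point per array, number of genes in brackets), with STAT5ca_177 as a diamond. Member keratins, member claudins with Epcam and the epithelial reference are lowest on STAT5ca_177, macrophage genes are highest there at 11.50, and muscle, fat and lymphocyte genes are highest on the glands.

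The array also held further genes of the keratin and claudin families. Of 15 other keratins on the array 11 were bright enough to test, and 0 passed in either class with all arrays. Without STAT5ca_177, 1 passed as higher in each class, Krt23. Krt6a, a keratin of stratified and injured epithelium, and Krt23, an acidic keratin, entered the test through their tumour values, with gland signals of 9.72, 15.9 and 12.6 for Krt6a and 33.1, 2.75 and 5.11 for Krt23, so that no difference is given for them. The Krt23 calls support nothing. Of 14 other claudins on the array 5 were tested, and 1 passed: Cldn5, the claudin of endothelium, fell by 2.71 ± 0.42 on the log2 scale in STAT5ca and by 2.12 ± 0.43 in STAT5Δ750 tumours (adjusted p of 0.000345 and 0.0029). Without STAT5ca_177, Cldn5 was again lower in both classes, and 1 other claudin, Cldn23, passed as higher in STAT5ca tumours. Its gland mean log2 was 4.89, so the glands alone did not carry it past the filter, and its call supports nothing.

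Of 16 partners of the claudins at the tight junction, 3 rose and 0 fell in each class, beside 13.9% of all genes higher in STAT5ca and 9.29% in STAT5Δ750 tumours: Lsr, the tricellular junction receptor, by 2.35 ± 0.38 in STAT5ca and 2.41 ± 0.39 in STAT5Δ750 tumours, F11r, which encodes the adhesion molecule JAM-A, by 1.30 ± 0.28 and 1.33 ± 0.28, and the polarity gene Crb3 by 1.32 ± 0.43 and 1.51 ± 0.44. The list medians were 1.06 and 0.82, beside 0.25 and 0.08 over all genes. On STAT5ca_177, Lsr was at 201 and F11r at 686, both above the 3 glands (61.5 to 154 and 347 to 572), unlike any of the 9 members. Without that array 12 and 8 of the 16 passed, all higher, beside 19.7% and 13.0% of all genes. These counts include Pard6b in both classes and Marveld3 in STAT5ca tumours, with gland means of 5.19 and 5.18 on the log2 scale. The glands alone did not carry either gene past the filter, and these calls support nothing. The shares over all genes given here are the background for the lists that follow.

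Keratin linkers, a list of desmosome genes and other linkers, gave 1 of 11 in STAT5ca tumours and 0 of 11 in STAT5Δ750 tumours. The gene called was Jup (plakoglobin), at 1.49 ± 0.46 (adjusted p = 0.029). Without STAT5ca_177 the counts were 8 higher and 1 lower, and 6 higher. The lower gene was Plec, a linker outside the desmosome, at -0.83 ± 0.28 (adjusted p = 0.0354, limma). The 8 include Evpl, whose gland mean log2 was 4.92. The glands alone did not carry Evpl past the filter, and its call supports nothing. Among 10 partners of EpCAM and regulators of membrane proteases, the tetraspanin gene Cd9 rose in both classes, by 1.45 ± 0.34 and 1.28 ± 0.35. Spint1, an inhibitor of the matriptase protease, rose by 2.38 ± 0.80 in STAT5Δ750 tumours (adjusted p = 0.0466), while Psen2, a gamma-secretase subunit gene, fell by 1.47 ± 0.38 there (adjusted p = 0.0123). Without STAT5ca_177, 5 were higher and 1 was lower in each class. The 5 include Spint1, Spint2 and St14, which are among the genes that set that array apart. Their calls without it are conditional on that choice and are no separate support for it.

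Of 17 regulators of epithelial transcription and splicing and their targets, Cdh1 rose in both classes, by 1.42 ± 0.31 and 1.5 ± 0.32. The transcription factor genes Klf5 and Ovol1 were also called in STAT5Δ750 tumours, but they entered the test through their tumour values (gland signals of 15.9, 8.85 and 40.3 for Klf5 and of 12.1, 9.93 and 15.7 for Ovol1), and these calls support nothing. Foxa1, a factor of hormone-sensing luminal cells, fell by 2.81 ± 0.70 in STAT5ca tumours (adjusted p = 0.00889), and its difference in STAT5Δ750 tumours was -2.08 ± 0.72 (adjusted p = 0.0517). Without STAT5ca_177, 12 of the 17 were higher and 1 was lower in STAT5ca tumours, and 10 and 1 in STAT5Δ750 tumours. Both counts of higher genes include Cdh1, Esrp1, Esrp2, Grhl2, Rab25, Ehf and Elf3, which are among the genes that set that array apart. These counts are therefore conditional on leaving it out and are no separate support for that choice. The 12 include Klf5, Ovol1 and Ovol2, and the 10 include Klf5 and Ovol1. Ovol2 had a gland mean log2 of 5, so the glands alone did not carry it past the filter either. These calls also support nothing. Of 13 mesenchymal genes 2 fell in both classes. Zeb1, a repressor of Cdh1, fell by 2.27 ± 0.38 and 1.94 ± 0.39, and the homeobox gene Prrx1 by 2.05 ± 0.49 and 1.72 ± 0.50. Without STAT5ca_177 the counts were 6 and 4. The high level of this list also set that array apart, so the counts without it are conditional on that choice. Zeb1 was at 143 on STAT5ca_177, within the range of the other tumours (46.9 to 290) and under the glands (379 to 583), while Vim, the intermediate filament of mesenchymal cells, was at 9760 there against at most 3880 elsewhere.

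The genes whose pattern over the 16 arrays was most like the mean of the 9 members were Ripk4, Grhl2, Gm16136, Ehf, Marveld2, Fzd6, Kcnk1 and Ptprf, of 9252 other genes compared. Pearson's r was 0.975 for Ripk4, a kinase of epidermal differentiation, 0.970 for Grhl2, a grainyhead-like factor, and 0.963 for Marveld2, a tricellular tight junction gene, with Spearman's rho of 0.838, 0.721 and 0.688. Without STAT5ca_177 their r was 0.934, 0.921 and 0.923, and they ranked 13, 29 and 26. The genes most opposite were Cacna1d, Ptpn6, Epb41l3 and Vav1, with r from -0.966 to -0.951 and from -0.936 to -0.884 without that array. Ptpn6 and Vav1 encode signalling proteins of blood cells. These correlations are a description over 16 arrays that share 3 groups and 1 array far from the rest.

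Each member was also compared with the mean of the other members. Krt18 followed it most closely (r = 0.99 over 16 arrays), then Cldn3 and Cldn7 (0.98 each) and Krt8 (0.97), whereas Krt7 had 0.80, Cldn4 0.83 and Krt19 0.49 (0.15 without STAT5ca_177). Krt19 had r from 0.213 (Krt7) to 0.572 (Krt8) with the other members. Genes closer to Krt19 were looked for after its values had been seen, and the nearest were Cyp39a1 (r = 0.898), Fads2 (0.872), Adamts15 (0.870), Cldn8 (0.864) and Armcx4 (0.861). Armcx4 had 18.3 and 28.4 on STAT5ca_123 and STAT5ca_169 against 1940 to 3300 on the 4 STAT5ca tumours with high Krt19, and Adamts15, a matrix protease gene, had 56.1 and 37.4 against 872 to 1610. Fads2, a fatty acid desaturase gene, had 194 and 190 there against 1480 to 1870, with 115 to 208 on the glands.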

How the data were processed

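Total RNA was labelled as biotin cRNA and hybridised to 1 array per sample, per the labels' protocols. The authors deposited 1 MAS5 signal per probe set and array, an intensity on a linear scale. MAS5 is named in the submitters' processing notes without a version. The mean of each array's values, trimmed by 2% at each end, was 250.08 or 250.09, so that the arrays had been scaled alike, while array medians ran from 57.3 to 90.7. Genes were named from the platform's probe table, and the 17 member probe sets were matched by gene identifier to RefSeq.

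Each array was scaled to a median of 75.9 and expressed as log2(signal + 7.9), the 20th percentile of all deposited values. Probe sets above 35.4 (the 40th percentile) on at least 3 arrays were kept, and for each gene the one with the highest mean log2 level was tested. The 3 groups were fitted in 1 model with limma 3.58.1 in R 4.3.3 (13 residual and 2.98 prior degrees of freedom), with two-sided p-values adjusted by Benjamini-Hochberg over 9261 genes per comparison. The number of arrays limits the precision. Tested on simulated data with 200 changed genes in 5 draws, this recovered 71.2% of 4-fold and 18.2% of 2-fold changes for STAT5ca against gland, 72.0% and 13.8% for STAT5Δ750 against gland, and 81.2% and 42.8% between tumours, with 4.08%, 6.94% and 3.28% false calls. The simulated noise was normal, independent and of equal spread on every array of a gene. It held no outlying array such as STAT5ca_177, so these rates do not measure the sensitivity or false calls of the present fits.

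The members, gene lists and tests were chosen with earlier results of these data known. Named are the 9 members with all their probe sets, up to 4 genes of each other list with the smallest adjusted p in any comparison, and the 8 most like and 4 most opposite to the members' mean of z-scores. Other named genes were chosen after their values were seen. Alternatives were the deposited scaling, quantile normalization, an offset of 1, no filter or one at the 60th percentile, all or averaged probe sets, array weights, a robust limma fit with a trend, only the groups compared, log2 of the beta-actin 3'/5' ratio as covariate, leaving out each array in turn, and leaving out STAT5ca_124 with STAT5Δ750_254. A further 2 fits without STAT5ca_177, with the deposited scaling or the actin ratio, were added after seeing the data. The labels give no batch. Promoter windows are those of a RefSeq table of build GRCm38.p6. Plots were made in Python 3.11.15 (matplotlib 3.10.9).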

Additional observations from a re-analysis of the deposited data

Results flagged for a closer look

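On the log2 scale, 7 of the 9 genes had an outlying lowest value among the 7 STAT5ca tumours, in each case on STAT5ca_177: Krt8 at 5.37, Krt18 at 6.22, Cldn1 at 4.14, Cldn3 at 4.25, Cldn4 at 4.76, Cldn7 at 4.67 and Epcam at 6.84. The gap to the next tumour took 0.589 of the group's range for Cldn4 and up to 0.922 for Krt18, above Dixon's critical value of 0.568. Krt7 (0.456) and Krt19 (0.082) were also lowest on STAT5ca_177, but without such a gap. For all 9 members STAT5ca_177 was the lowest of the 16 arrays, which held for 11.1% of all genes. In the STAT5Δ750 tumours, Cldn3 on STAT5Δ750_165 was at 10.09, with a gap of 0.694 of the range against a critical value of 0.625. In all, 18 groups of values were examined and 8 were past the critical value, where chance gives about 1 in 20, and the 7 on STAT5ca_177 share 1 array.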

How the results depend on the processing

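Under 30 alternatives per gene, the members' differences from gland kept direction and side of the threshold in 230 of 270 cases for STAT5ca tumours (32 came to pass, 8 reversed) and 229 of 270 for STAT5Δ750 tumours (31 came to pass, 10 no longer passed, for Krt7 or Cldn4). Between tumours 243 of 270 did, and 27 reversed. Counts of members called in STAT5ca tumours (0) were 1 with all probe sets or their mean, 8 with array weights, 0 to 8 on leaving out 1 array (8 without STAT5ca_177), and 8 with the deposited scaling or 7 with the actin ratio once STAT5ca_177 was also left out. With all probe sets or their mean, the gene called was Cldn1. That call came from, or drew on, the dimmer probe set that passed the filter through its tumour values, and it supports nothing. In STAT5Δ750 tumours (2) they were 8 with array weights, 0 with the actin ratio, 8 with only the arrays compared, 0 to 8 on leaving out 1 array, and 8 under each pair of changes without STAT5ca_177. Over all genes, 2154 calls in STAT5ca became 4997 with array weights, 772 with the actin ratio and 1179 to 3039 on leaving out 1 array (fewest without gland 1, 4 or 6), and 1823 in STAT5Δ750 became 4861 with array weights, 2826 with only the arrays compared, 835 to 2439 on leaving out 1 array and 2752 with the deposited scaling without STAT5ca_177. Between tumours, 0 genes became 1 without STAT5ca_169 (range 0 to 1). Under the deposited scaling the median of all genes moved from 0.25 to -0.02 in STAT5ca and from 0.08 to -0.04 in STAT5Δ750 tumours, no member changed direction, and the split of higher and lower calls moved from 1284 and 870 to 622 and 1226, and from 860 and 963 to 706 and 1299.

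Reversals were as follows, and the cause was not tested. Against gland in STAT5ca tumours, Krt19 became 1.38 with array weights, 0.45 with the deposited scaling and 0.05 with the actin ratio (both without STAT5ca_177), and -0.70 to 0.69 on leaving out 1 array, and Epcam became -0.15 with the actin ratio. Between tumours, array weights gave 0.01 for Krt8, 0.04 for Krt19, 0.54 for Cldn1, 0.29 for Cldn3, 0.09 for Cldn7 and 0.10 for Epcam. The deposited scaling without STAT5ca_177 gave 0.09 for Krt8, 0.11 for Krt18, 0.65 for Cldn1, 0.45 for Cldn3, 0.20 for Cldn7 and 0.20 for Epcam, and the actin ratio without it 0.12, 0.10, 0.40, 0.41, 0.14 and 0.27. Leaving out 1 array gave -0.99 to 0.22 for Krt8, -0.86 to 0.24 for Krt18, -0.25 to 0.77 for Cldn1, -0.76 to 0.57 for Cldn3, -0.84 to 0.32 for Cldn7 and -0.59 to 0.32 for Epcam. No paired analysis was possible because the groups share no replicate numbers. Signals near the offset of 7.9, as for claudins on STAT5ca_177, carry little information on size.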
